A study of Mus musculus with 4 samples.

Results

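The genes described here are the Eph receptors, their ephrin ligands, the netrins, and the netrin receptors, which guide growing axons and migrating neurons. They were taken by name from the deposited gene table: every row named as an Eph A or B receptor, an ephrin A or B, a netrin, a netrin-G, an UNC5 receptor, Dcc, Neo1, Dscam or Dscaml1. The rule found 35 genes among 32681, and 34 of them had enough reads to be tested. The libraries came from 4 primary neuron cultures made from the neocortex of wild-type CD-1 mouse embryos at embryonic day 13 and grown in Neurobasal medium with B27 supplement. A control shRNA (short hairpin RNA) was introduced by transfection into 2 of the cultures, and DcpS shRNA into the other 2. DcpS is the enzyme that clears the cap structure left over after mRNA decay. Both DcpS shRNA libraries are labelled with the same hairpin, shDcPS-2. Loss of DcpS therefore cannot be told apart from other effects of this hairpin. The labels give neither the share of cells that took up the shRNA nor an untransfected group. They do not name separate animals or litters, so a p-value covers only the spread between these libraries, which may be technical.

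Eph receptors are receptor tyrosine kinases that are activated by ephrins on a neighbouring cell, and contact often makes a growth cone turn away. Ephrin A ligands are held in the membrane by a lipid anchor, while ephrin B ligands span the membrane and can signal back into their own cell. Netrin 1 attracts axons through DCC and repels them when UNC5 receptors take part. UNC5 receptors also bind FLRT proteins, and the netrin-G proteins, lipid-anchored relatives of the netrins, bind some synaptic adhesion proteins of the LRRC4 family.

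The libraries held 17754768 to 21793685 reads, and Dcps, the targeted gene, was at 499.8 and 507 normalised reads in the controls and at 114 and 119.6 with DcpS shRNA, 23.3% of the control mean (log2 −2.10, SE 0.11, limma, Benjamini-Hochberg adjusted p 1.52e-08). A normalised read count is a read count divided by the size factor of its library, so that libraries of unlike depth can be set side by side. Neuron markers summed to 107026 and 105713 normalised reads with DcpS shRNA and to 112219 and 110615 in the controls. Of the 12 neuron markers, 2 were called lower (Snap25 and Syt1, 83.7% and 85.6% of the control mean) and 1 higher (Rbfox3, 117.9%). Radial glia and intermediate progenitor markers summed to 31481 to 33989 in the 4 libraries, with 1 of 9 called higher (Nes, 120.9%) and 0 lower. Interneuron markers summed to 291 and 299 in the controls against 264 and 266 with DcpS shRNA. Microglia markers summed to 156 and 153 against 141.7 and 149.7, with P2ry12 at 3 reads or fewer in every library. Endothelial markers summed to 108 and 153 against 89.0 and 94.99, with Kdr called lower (59.0% of the control mean) and Cldn5 and Tie1 at 3 reads or fewer. Most of this sum was Kdr, at 84.6 and 108.7 normalised reads in the controls against 58.1 and 55.9 with DcpS shRNA. Pecam1, with 6 to 22 reads a library, was above both controls (191.7% of the control mean) and was not called. The interneuron, microglia and endothelial sums, like that of the neuron markers, were lower in both DcpS shRNA libraries than in both controls. Single genes lie so in 24.0% of all genes tested. No interneuron or microglia marker was called, and both lists were mixed. Gad1 (68.0% of the control mean) and Dlx5 (86.0%) lay below both controls and Slc32a1 (123.5%) above. Cx3cr1, Aif1 and Csf1r lay below and Tmem119 (149.0%) and C1qa (109.1%) above. Meningeal fibroblast markers summed to 16480 and 17881 in the controls against 10544 and 10104 with DcpS shRNA, with 8 of 10 called lower, and mural cell markers to 1268 and 1292 against 1084 and 1012, with 2 of 5 tested called lower. Astrocyte markers summed to 5933 to 6144, with 3 of 6 tested called lower and 1 higher. The lower calls were Gfap, Aqp4 and Gja1, at 51.1%, 45.8% and 62.9% of the control mean, and the higher call was Aldoc, at 115.6%. Most of the sum was Aldoc, at 3825 and 3778 normalised reads in the controls against 4391 and 4395 with DcpS shRNA. The level sum therefore does not show the lower markers. The part that these other cells have in the differences below was not tested.

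Most of these guidance genes were well expressed. Levels between genes are compared per kilobase of annotated exon, as normalised reads per kb averaged over the 4 libraries. The transmembrane ligand ephrin B1, Efnb1, stood highest at 960.4 per kb, followed by Neo1, the receptor neogenin for netrins and RGM proteins, at 869 per kb. The ranges of Efnb1 and Neo1 over the 4 libraries overlapped (902 to 1025 and 824 to 915 per kb), so their order is not resolved. Ephrin B2, Efnb2 (727.5 per kb), and the receptor Epha4 (691 per kb), which binds both ephrin classes, came next, and their ranges also overlapped. Epha5, at 442 per kb, was below Epha4 in every library. Its range of 397 to 483 per kb overlapped that of Ntng2, 391 to 445, and Ntng2 was the higher of the pair in both controls. The lowest was Epha1, at 1.29 per kb with 3 to 7 reads a library, which was left out of the test for low counts.

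**Figure D1:**
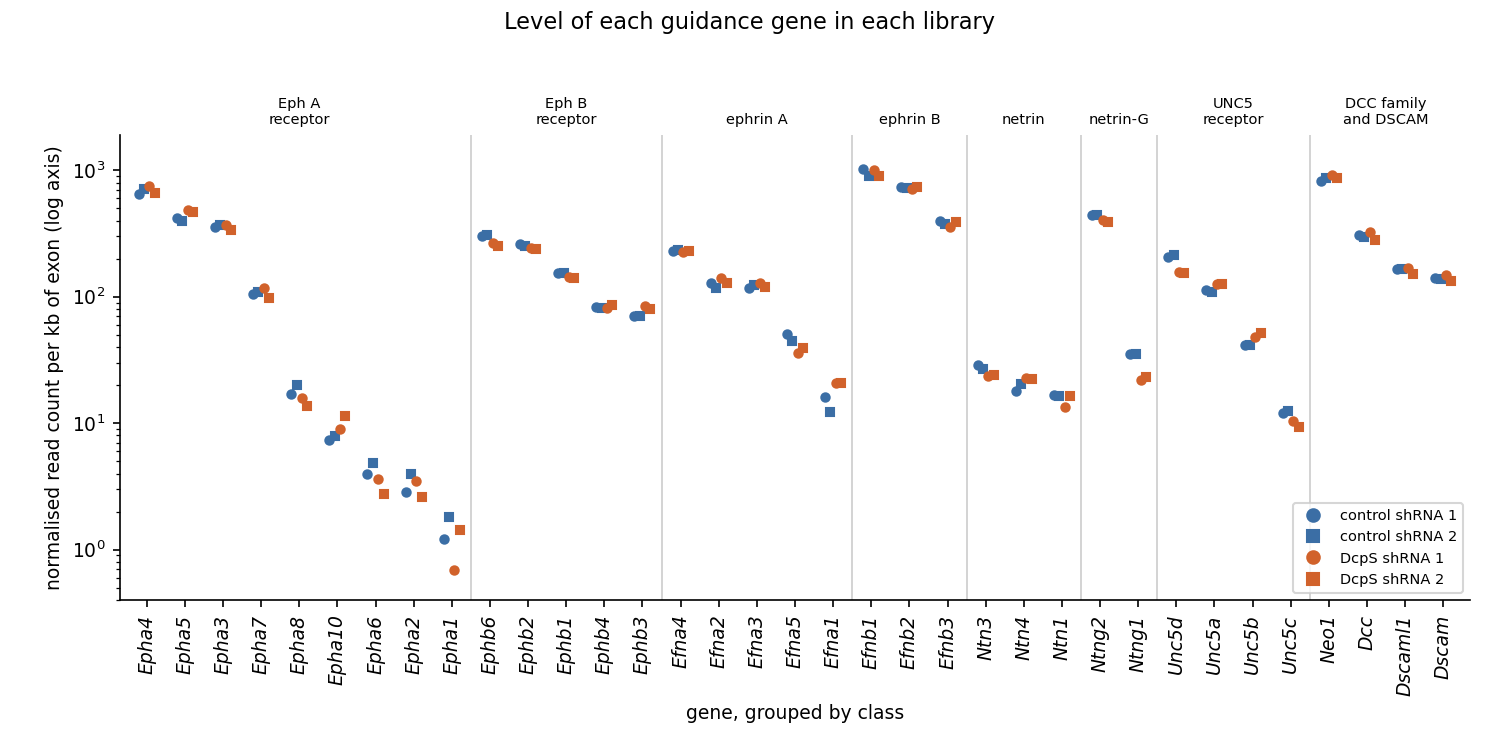
Normalised reads per kb of exon (log axis) for each of the 35 guidance genes, grouped by class, with 1 point per library. Levels run from 1.29 per kb for Epha1 to 960.4 per kb for Efnb1, and the 4 points of a gene lie close together at high levels and spread at low ones.

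Leading members held unlike shares of their classes. In summed reads per kb, Epha4 held 42.4% of the Eph A receptors and Ephb6 33.5% of the Eph B receptors. Efna4 held 42.5% of the ephrin A ligands, Efnb1 46.5% of the ephrin B ligands and Ntng2 82.1% of the netrins and netrin-G proteins. Ephb2 came close to Ephb6, at 29.3% to 30.1% against 31.3% to 35.3% over the 4 libraries. Such shares depend on the length used, all annotated exons of a gene merged, which is 3773 bases for Ephb6 and 12608 for Ephb2. The secreted netrins were low: Ntn3, Ntn4 and Ntn1 stood at 25.8, 20.8 and 15.7 per kb, while Dcc, the attractive netrin 1 receptor, stood at 302 per kb. All netrin receptors together summed to 1832 per kb in the control mean, far above the secreted netrins.

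With DcpS shRNA, 3 guidance genes fell and 1 rose. The repulsive netrin receptor Unc5d, the netrin-G gene Ntng1 and the kinase-dead receptor Ephb6 fell, and the ephrin A receptor Epha5 rose. These are calls by limma on log2(normalised read count + 1) with Benjamini-Hochberg adjusted p under 0.05 over 18110 genes. Lower calls made up 8.82% of the tested guidance genes against 3.65% of all genes tested, and higher calls 2.94% against 2.14%. In bulk RNA, fewer cells of a type and less RNA per cell cannot be told apart. With so few members called, these shares are a description and set nothing apart. The remaining 30 tested genes did not pass, with adjusted p of 0.117 or more. The median difference of the 34 genes was −0.02 on the log2 scale (0.00 for all genes tested), and the median size, regardless of sign, 0.14 (0.11 for all genes).

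The 2 DcpS shRNA libraries lay above both controls for 7 of the 34 genes (24.4% of all genes tested do so) and below both for 12 (24.0% of all genes). Separation of the groups alone is therefore common in these data, and in 15 genes the groups overlapped.

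**Figure D2:**
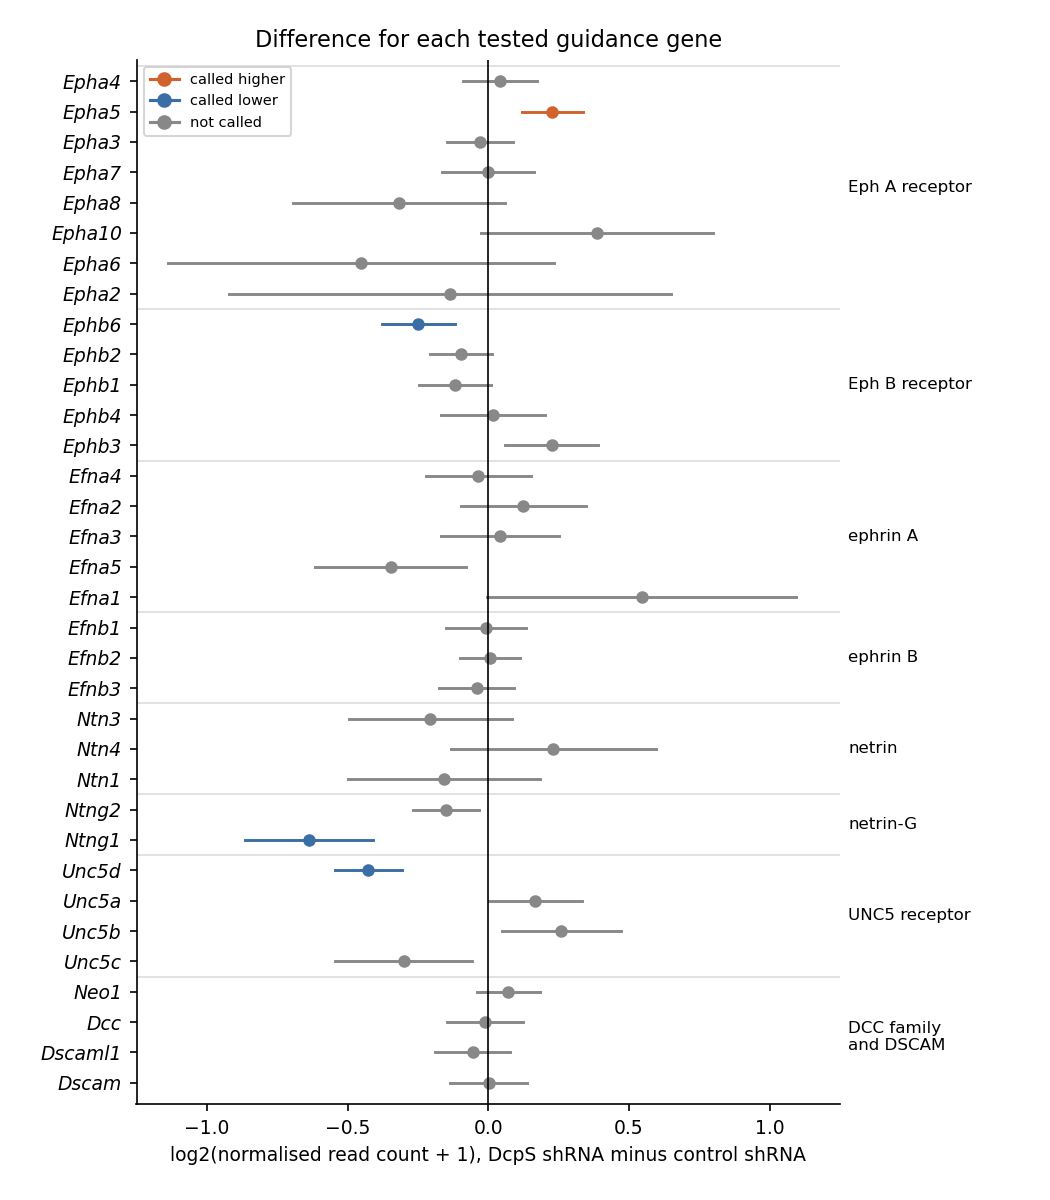
Difference between DcpS shRNA and control shRNA in log2(normalised read count + 1) for the 34 tested guidance genes, by class, with points for estimates and bars for 95% intervals from limma. Ntng1, Unc5d and Ephb6 are called lower and Epha5 higher, and the widest bars belong to the genes with the fewest reads, such as Epha6 and Epha2.

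Among the Eph A receptors, 1 of 8 tested genes passed. Epha5 (chromosome 5, 84054761 to 84417382, minus strand, GRCm38), a receptor for ephrin A ligands found on many cortical neurons, read 6972 and 6650 in the controls against 8078 and 7866 with DcpS shRNA, in normalised reads. Both DcpS shRNA libraries were above both controls, and the means were 6811 ± 228 and 7972 ± 149.9 (SD, n = 2 per group). Its log2 fold change was 0.23 (SE 0.05, limma, Benjamini-Hochberg adjusted p 0.0129), with the DcpS shRNA mean at 117% of the control mean. The call ended without control 1 (limma, adjusted p 0.0770) and without control 2 (0.285), with the direction kept. Epha5 held 26.7% and 24.5% of the Eph A reads per kb in the controls against 27.7% and 29.4% with DcpS shRNA.

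The other abundant Eph A receptors showed no such separation. Epha4 read 5261 and 5699 in the controls against 5993 and 5295 with DcpS shRNA, and its difference of 0.04 had a 95% interval of −0.09 to 0.17. Epha3, another ephrin A receptor, read 3080.4 and 3184 against 3198 and 2947, and Epha7, which takes part in cortical boundaries, 1036 and 1082 against 1159 and 964. In Epha4, Epha3 and Epha7 the groups overlapped. The largest uncalled differences of this class were in genes with few reads. Epha10, a receptor without kinase activity, read 53.2 and 57.4 in the controls against 64.5 and 81.6 with DcpS shRNA (log2 0.39, interval −0.03 to 0.80), Epha6 20.9 and 25.6 against 19.1 and 14.5 (−0.45, −1.14 to 0.23), and Epha8 79.8 and 94.3 against 74.5 and 64.8 (−0.32, −0.69 to 0.06). Intervals this wide leave both a large change and none within reach at this depth. Epha2, a receptor known mainly from epithelial and progenitor cells, gave 11 to 18 reads a library.

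Among the Eph B receptors, which bind ephrin B ligands, 1 of 5 passed. Ephb6 (chromosome 6, 41605482 to 41620509, plus strand), whose kinase domain is inactive, read 1147 and 1155 in the controls against 996 and 942 with DcpS shRNA. The means were 1151 ± 5.58 and 969 ± 38.0 (SD, n = 2 per group), and both DcpS shRNA libraries were below both controls. It fell by 0.25 on the log2 scale (SE 0.06, limma, Benjamini-Hochberg adjusted p 0.0242), to 84.2% of the control mean. The call ended without control 1 (limma, adjusted p 0.0983), control 2 (0.133) or DcpS shRNA 2 (0.0798) and with DESeq2 (0.166).

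Ephb3, a receptor needed with Ephb2 for commissural axons, had the lowest adjusted p of the uncalled guidance genes (0.117, limma, Benjamini-Hochberg). It read 470.3 and 467 in the controls against 564 and 532 with DcpS shRNA, a log2 difference of 0.23 (interval 0.06 to 0.39). Ephb1 read 1085 and 1079.9 against 1004 and 991 (−0.12, interval −0.25 to 0.01), and Ephb2, the most abundant Eph B gene in reads, 3319 and 3198 against 3065 and 3026 (−0.10, −0.21 to 0.01). Ephb3 was thus above both controls in both DcpS shRNA libraries, and Ephb1, Ephb2 and Ephb6 below. Of all genes tested, 24.4% lie above both controls and 24.0% below, and of these Eph B genes only Ephb6 was called. Ephb4, the venous endothelial receptor for ephrin B2, read 386 and 379 against 376 and 399, with overlap of the groups.

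No ephrin passed the test. Of 8 ephrin genes, limma called 0, with 1 at an unadjusted p under 0.05 (Efna5). edgeR also called 0, with 1 at an unadjusted p under 0.05, and DESeq2 0, with 0. Efna5, the ligand that shapes topographic maps and areal borders, read 203 and 182 in the controls against 144 and 158 with DcpS shRNA, with both below the controls (log2 −0.35, interval −0.61 to −0.08, limma adjusted p 0.138). Efna1, a low transcript, read 29.5 and 22.6 in the controls against 38.2 and 38.0 with DcpS shRNA (0.54, interval −0.01 to 1.09). Efna4, the most abundant ephrin A per kb, read 369.6 and 373 against 361 and 364, a small gap without overlap. Efna3 read 286 and 300.5 against 313 and 291, and Efna2 272 and 250.2 against 298 and 272, and in both the groups overlapped.

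The ephrin B ligands were the most abundant ephrins and differed little between the groups. Efnb1 read 3539 and 3114 in the controls against 3483 and 3125 with DcpS shRNA, so its 2 libraries of a group differed more than the groups did (log2 −0.01, interval −0.15 to 0.13). Efnb2 read 5025 and 4928 against 4913 and 5082 (0.01, interval −0.10 to 0.11), and Efnb3, the midline ligand, 1257 and 1189 against 1141 and 1236. The groups overlapped in all 3 genes.

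The largest fall among the called guidance genes was that of a netrin-G gene. Ntng1 (chromosome 3, 109780040 to 110144011, minus strand), which encodes netrin-G1, read 292 and 292 in the controls against 183 and 192 with DcpS shRNA. The means were 292 ± 0.406 and 187 ± 6.78 (SD, n = 2 per group). An SD from 2 libraries is too uncertain to measure the gap against. Over all genes, libraries of a group differed by more than sampling noise. Ntng1 fell by 0.64 on the log2 scale (SE 0.11, limma, Benjamini-Hochberg adjusted p 0.00160), to 64.2% of the control mean. Its call held in all 13 alternative settings, with differences of −0.67 to −0.60. Its paralogue Ntng2, which encodes netrin-G2, read 1756 and 1774 in the controls against 1624 and 1560.0 with DcpS shRNA (log2 −0.15, interval −0.27 to −0.03, limma adjusted p 0.145). Both genes were below the controls in both DcpS shRNA libraries. The ratio of Ntng2 to Ntng1 per kb was 12.4 and 12.5 in the controls against 18.4 and 16.8 with DcpS shRNA. Of the annotated exon length of Ntng2, 14.0% is shared with a gene on the same strand, 6530402F18Rik, so how reads there were assigned can affect its value.

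Of the secreted netrins, limma called 0 of 3, with 0 at an unadjusted p under 0.05, and edgeR and DESeq2 gave the same counts. Ntn1, the classical axon attractant, read 105 and 103 in the controls against 84.5 and 103 with DcpS shRNA. Ntn3 read 146 and 136 against 122 and 123 (log2 −0.21, interval −0.50 to 0.08), and Ntn4, a basement membrane netrin, 67.5 and 75.9 against 84.5 and 83.8 (0.23, interval −0.13 to 0.60). Ntn3 was below and Ntn4 above both controls in both DcpS shRNA libraries, and both intervals include 0. Tbc1d24, a gene on the same strand averaging 1847 normalised reads, shares 1.74% of the annotated exon length of Ntn3. How reads there were assigned can affect the value of Ntn3.

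The 4 UNC5 receptors lay on both sides of the controls, and 1 of them passed the test. Unc5d (chromosome 8, 28646717 to 29219636, minus strand), a receptor of migrating and upper-layer cortical neurons, read 1894 and 1985 in the controls against 1456 and 1428 with DcpS shRNA. The means were 1940 ± 64.9 and 1442 ± 20.0 (SD, n = 2 per group). It fell by 0.43 on the log2 scale (SE 0.06, limma, Benjamini-Hochberg adjusted p 0.000182), to 74.4% of the control mean, and the call held in all 13 alternative settings, at −0.46 to −0.39. Unc5c read 229 and 240.0 in the controls against 201 and 179.9 with DcpS shRNA (log2 −0.30, interval −0.54 to −0.06, limma adjusted p 0.158). Unc5a read 472 and 456 against 522 and 521 (0.17, interval 0.00 to 0.33, adjusted p 0.263). Unc5b, which is also a receptor of vessels, read 261 and 262 against 302 and 325 (0.26, interval 0.05 to 0.47, adjusted p 0.159). In each of the 4 genes the groups did not overlap, with Unc5c and Unc5d below and Unc5a and Unc5b above the controls. Such separation is common, with 24.0% of all genes tested below both controls and 24.4% above. Unc5d alone passed the adjusted test.

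The shares of the UNC5 receptors in their sum restate the values above and are described without a test. As parts of the same sum, they do not vary independently. Unc5d held 55.2% and 56.8% of the summed UNC5 reads per kb in the controls against 46.2% and 45.4% with DcpS shRNA. Unc5a held 30.4% and 28.9% in the controls against 36.6% and 36.6% with DcpS shRNA, and Unc5b 11.2% and 11% against 14.1% and 15.2%. Unc5c held 3.21% and 3.31% in the controls against 3.07% and 2.76% with DcpS shRNA. The ratio of Unc5d to Unc5b per kb was 4.92 and 5.15 in the controls against 3.28 and 2.98 with DcpS shRNA. It sets the UNC5 gene with the largest fall against the one with the largest rise. The UNC5 sum itself was 372 and 379 per kb in the controls against 342 and 341 with DcpS shRNA.

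The other netrin receptors overlapped between the groups. Dcc read 4082 and 3884 in the controls against 4249 and 3680 with DcpS shRNA, and Neo1 7184 and 7597 against 7973 and 7557 (log2 0.07, interval −0.04 to 0.18). Dscam, a homophilic adhesion molecule that can also bind netrin 1, read 1244 and 1224 against 1308 and 1166, and its paralogue Dscaml1 1471 and 1487 against 1510.0 and 1341. limma called 0 of these 4 genes, with 0 at an unadjusted p under 0.05, and so did edgeR and DESeq2. In Dcc, Dscam and Dscaml1 the DcpS shRNA libraries were the highest and the lowest of the 4.

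**Figure D3:**
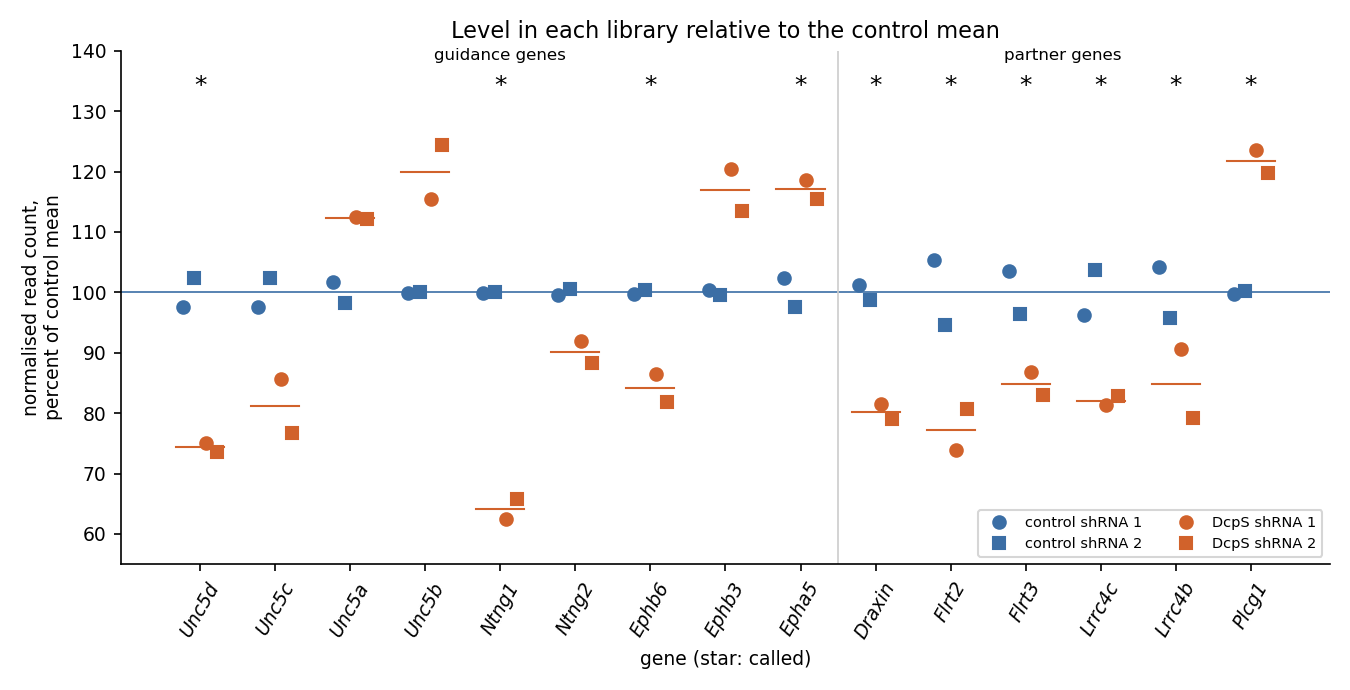
Normalised read counts of 9 guidance genes and 6 partner genes in each library as a percentage of the gene's control mean, with circles for replicate 1, squares for replicate 2, an orange line at the mean of the DcpS shRNA libraries and a star over called genes. Ntng1 lies at 64.2% and Unc5d at 74.4% of the control mean, while Unc5a, Unc5b, Ephb3 and Epha5 lie above it.

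Summed over a class, the differences were small. The Eph B receptors summed to 876 and 866 normalised reads per kb in the controls against 816 and 797 with DcpS shRNA (log2 ratio −0.11), and the netrins with netrin-G to 539 and 543 against 489 and 477 (−0.16). In both classes the groups did not overlap, and the exact two-sided permutation p was 0.333, the smallest that 2 libraries against 2 allow. The Eph A receptors summed to 1561 and 1619 against 1744 and 1596 per kb, the ephrin A ligands to 543 and 532 against 551 and 534, the ephrin B ligands to 2153 and 1994 against 2084 and 2035, and the netrin receptors to 1813 and 1852 against 1898 and 1771. In these 4 classes the groups overlapped, with log2 ratios from −0.01 to 0.07.

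The promoters of 3 of the called genes are shown because these genes passed the test in different directions and RefSeq lists a start site for each. Each run covers 250 bases before and 50 after the start on GRCm38.p6, 5′ to 3′ on the gene's strand, with GC boxes (GGGCGG on either strand) in capitals.
Ntng1, chr3:110143423-110143722, minus strand: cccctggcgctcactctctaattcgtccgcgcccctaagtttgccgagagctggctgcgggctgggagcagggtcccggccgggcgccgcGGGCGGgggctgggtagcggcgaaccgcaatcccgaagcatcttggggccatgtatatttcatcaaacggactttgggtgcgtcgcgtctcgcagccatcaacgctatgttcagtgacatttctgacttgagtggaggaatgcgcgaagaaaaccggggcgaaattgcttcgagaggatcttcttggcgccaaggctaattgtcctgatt
Ephb6, chr6:41605261-41605560, plus strand: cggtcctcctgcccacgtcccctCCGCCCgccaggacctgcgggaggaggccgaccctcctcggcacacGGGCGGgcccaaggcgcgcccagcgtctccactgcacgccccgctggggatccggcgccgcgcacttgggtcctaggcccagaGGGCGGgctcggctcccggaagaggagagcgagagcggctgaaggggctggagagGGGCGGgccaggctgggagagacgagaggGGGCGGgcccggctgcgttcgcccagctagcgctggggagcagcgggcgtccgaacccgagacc
Epha5, chr5:84417333-84417632, minus strand: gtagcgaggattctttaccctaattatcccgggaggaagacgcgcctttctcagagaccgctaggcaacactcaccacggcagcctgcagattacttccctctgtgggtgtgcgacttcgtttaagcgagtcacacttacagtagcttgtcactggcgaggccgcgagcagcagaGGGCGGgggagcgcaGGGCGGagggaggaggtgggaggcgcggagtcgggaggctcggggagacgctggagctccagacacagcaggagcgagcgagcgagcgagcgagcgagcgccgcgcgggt
All 3 were rich in CpG, with 28 CpG dinucleotides for Ntng1, 34 for Ephb6 and 30 for Epha5 against a median of 7 over 32851 RefSeq promoters of this length. The GC box was found 1 time in Ntng1, 5 times in Ephb6 and 2 times in Epha5, and 35.7% of all promoters hold it. The word TATAAA, found on either strand in 13.6% of all promoters, is in none of the 3 windows. Both the lowered genes Ntng1 and Ephb6 and the raised gene Epha5 thus had CpG-rich windows.

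Sequence words of 7 bases from the Dcps transcript were looked for in the guidance genes. The words CACGTGC and ACGTGCA, which overlap by 6 bases, both lie in the annotated 3′ UTR of Dcps (GENCODE M21), and an earlier look at these data had found them often in lowered genes. Here 33.1% of 646 called lower genes with a scanned 3′ UTR held a word, 6.25% of 368 called higher genes and 8% of 13700 tested genes. As the words were chosen on these data, these shares restate the earlier observation and are no test of it. The labels do not give the shRNA sequence, so the words were not matched to it. Of the 34 tested guidance genes 2 held one, Ntn1 and Ntn3, and none of the 3 called lower genes did. The Dcps, Ntn3 and Ntn1 sites are shown with 10 bases on either side, 5′ to 3′ on the transcript (GRCm38), and CACGTGC in capitals.
Dcps, word at chr9:35124757-35124763, minus strand: ctatcacctgCACGTGCatttcacagc
Ntn3, word at chr17:24206505-24206511, minus strand: ctggaagtgtCACGTGCatcgccatct
Ntn1, word at chr11:68211310-68211316, minus strand: aagacatgtcCACGTGCccaaggtcac
In Dcps and Ntn3 the next base is a, which completes ACGTGCA. Neither netrin was called: Ntn3 lay at 86.5% and Ntn1 at 90.0% of the control mean, and the match is a description of letters only.

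Partners of these receptors were taken from 2 lists of 75 genes, of which 73 were tested. On the list of netrin and UNC5 partners and signalling proteins 7 of 35 genes fell and 0 rose by limma, where 13 were lower and 3 higher at an unadjusted p under 0.05, which 3380 of all 18110 genes tested reached. edgeR also called 7 lower and 0 higher, and DESeq2 3 and 0. On the list of Eph and ephrin partners 4 of 38 fell and 1 rose. Lower calls thus made up 15.1% of the 73 partner genes against 3.65% of all genes tested, while the median difference of the partner genes was −0.01. As the lists were chosen with earlier results of these data known, these shares are a description and set nothing apart. The count of 11 lower calls dropped to 2 without control 1, to 5 without control 2 or without DcpS shRNA 2, and to 4 with DESeq2. The 1 higher call became 4 without DcpS shRNA 1 and 3 without DcpS shRNA 2.

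The called partners include ligands of the receptors above. Flrt2, an adhesion protein that repels neurons through UNC5D, read 2969 and 2667 in the controls against 2081 and 2273 with DcpS shRNA and fell by 0.37 (SE 0.06, limma, Benjamini-Hochberg adjusted p 0.00166). Flrt3, its paralogue, read 1422 and 1326 against 1192 and 1139.8 and fell by 0.24 (SE 0.06, adjusted p 0.0305). Draxin, a secreted repellent that binds DCC and netrin 1, read 3068 and 2995 against 2469 and 2394 and fell by 0.32 (SE 0.05, adjusted p 0.00136). In all 3 genes both DcpS shRNA libraries were below both controls, as in 24.0% of all genes tested. The 3 genes were named because they were called lower, so this separation adds nothing to the calls. In the same libraries 8 of 10 meningeal fibroblast markers were called lower, and their part in the fall of these genes was not tested. The calls of Flrt2 and Draxin held in all 13 alternative settings, and that of Flrt3 ended without control 1 (limma, adjusted p 0.293), without DcpS shRNA 2 (0.0756) and with DESeq2 (0.167).

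Of the 3 listed genes of the LRRC4 family, only some of which encode netrin-G ligands, 2 were called lower. Over all genes tested 3.65% were called lower, and a count over 3 genes sets nothing apart. Lrrc4, the third, was not called and read 294 and 318 in the controls against 323 and 331 with DcpS shRNA (log2 0.10, interval −0.11 to 0.30), above both controls. Lrrc4c, the postsynaptic ligand of netrin-G1, read 579.6 and 625 in the controls against 489.7 and 498 with DcpS shRNA (−0.28, SE 0.08, limma, Benjamini-Hochberg adjusted p 0.0400). Lrrc4b, a member of the same family, read 1993 and 1834 against 1734 and 1515 (−0.24, SE 0.07, adjusted p 0.0486). Both were close to the threshold. The call of Lrrc4c ended without any one of the 4 libraries (limma, adjusted p 0.0550 to 0.316) and with DESeq2 (0.257), and that of Lrrc4b without control 1 (limma, adjusted p 0.332) or DcpS shRNA 2 (0.220), with library-total scaling (0.0522) and with DESeq2 (0.170). Without DcpS shRNA 2 the difference of Lrrc4b shrank to −0.14.

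Signalling proteins made up the rest. Trio, an exchange factor downstream of DCC, read 6135 and 5716 in the controls against 5138 and 4984 with DcpS shRNA (−0.23, SE 0.05, limma, Benjamini-Hochberg adjusted p 0.0175), a call that ended without control 1 (0.326). Grip1, a scaffold that binds ephrin B ligands, read 852 and 846 against 740.5 and 655 (−0.29, adjusted p 0.0282), and the syndecan Sdc2, an EphB substrate in spines, 465 and 500.5 against 385 and 389 (−0.32, adjusted p 0.0362). Kalrn (−0.26), an exchange factor downstream of EphB receptors, Adam10 (−0.19), a protease that cleaves ephrins, and the netrin pathway ubiquitin ligase Trim67 (−0.19) also fell, with adjusted p of 0.0378, 0.0451 and 0.0452 (limma). Plcg1, a phospholipase recruited by Eph receptors and many other kinases, was the called gene that rose, from 4525 and 4550.3 to 5609 and 5434 (0.28, SE 0.05, limma, adjusted p 0.00252), in all 13 alternative settings. Of its exon length 4.82% is shared with Zhx3 on the opposite strand, and whether counting used strand is not known here. Without DcpS shRNA 2 the difference of Kalrn shrank to −0.14. Lower calls of Grip1 ended without control 1, control 2 or DcpS shRNA 2 (limma, adjusted p 0.0868 to 0.159), of Sdc2 without any one library (0.0554 to 0.283), of Kalrn without control 1, control 2 or DcpS shRNA 2 (0.0945 to 0.124), of Adam10 without either control (0.238 and 0.284) and of Trim67 without either control or DcpS shRNA 2 (0.0689 to 0.282). DESeq2 did not call Grip1, Sdc2, Adam10 or Trim67. Lrrc4c, Lrrc4b, Kalrn, Adam10 and Trim67 are named outside the rule of 6 genes per direction, after their values were seen. None of the 11 lower partner genes held either 7-base word, which 11% of the 73 partner genes did.

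**Figure D4:**
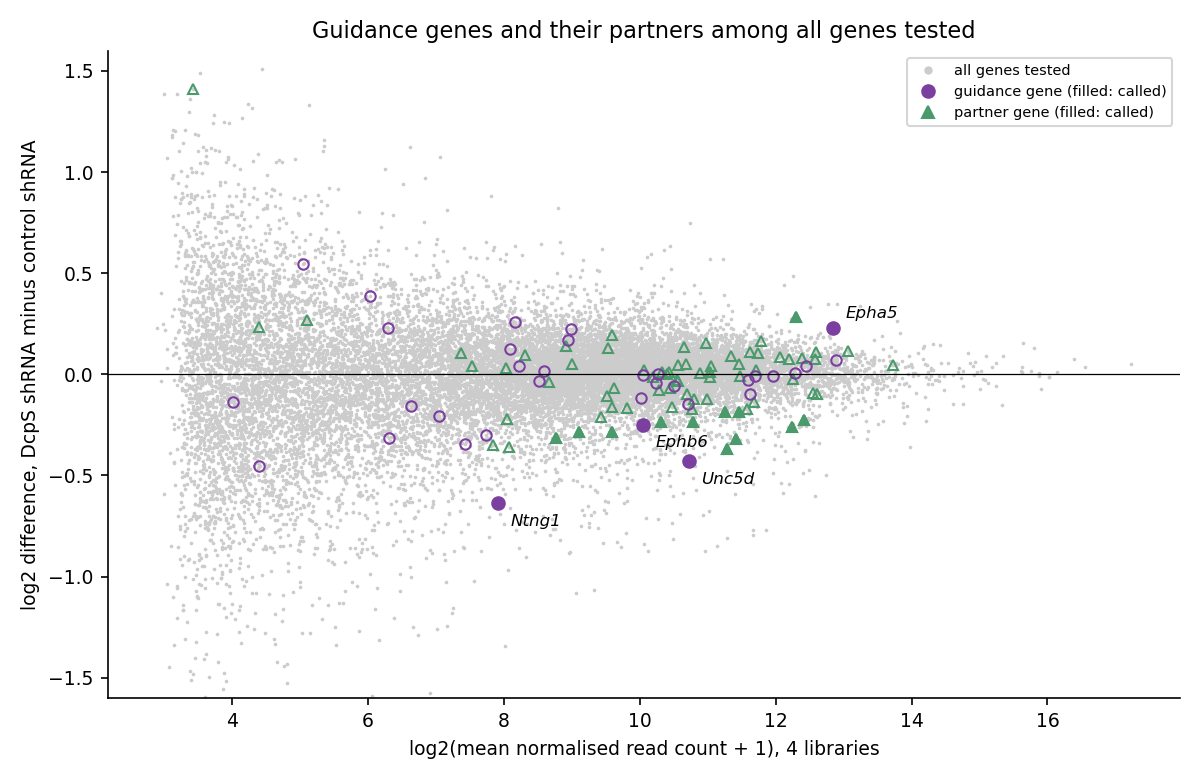
Difference in log2(normalised read count + 1) between DcpS shRNA and control shRNA against log2 of the mean normalised read count, for all 18110 genes tested (grey, with 16 genes beyond ±1.6 not shown), guidance genes (purple circles) and partner genes (green triangles), filled where called. Of the filled circles, Ntng1 (−0.64) and Unc5d (−0.43) lie lowest, and Epha5 (0.23) is the filled circle above 0.

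**Figure D5:**
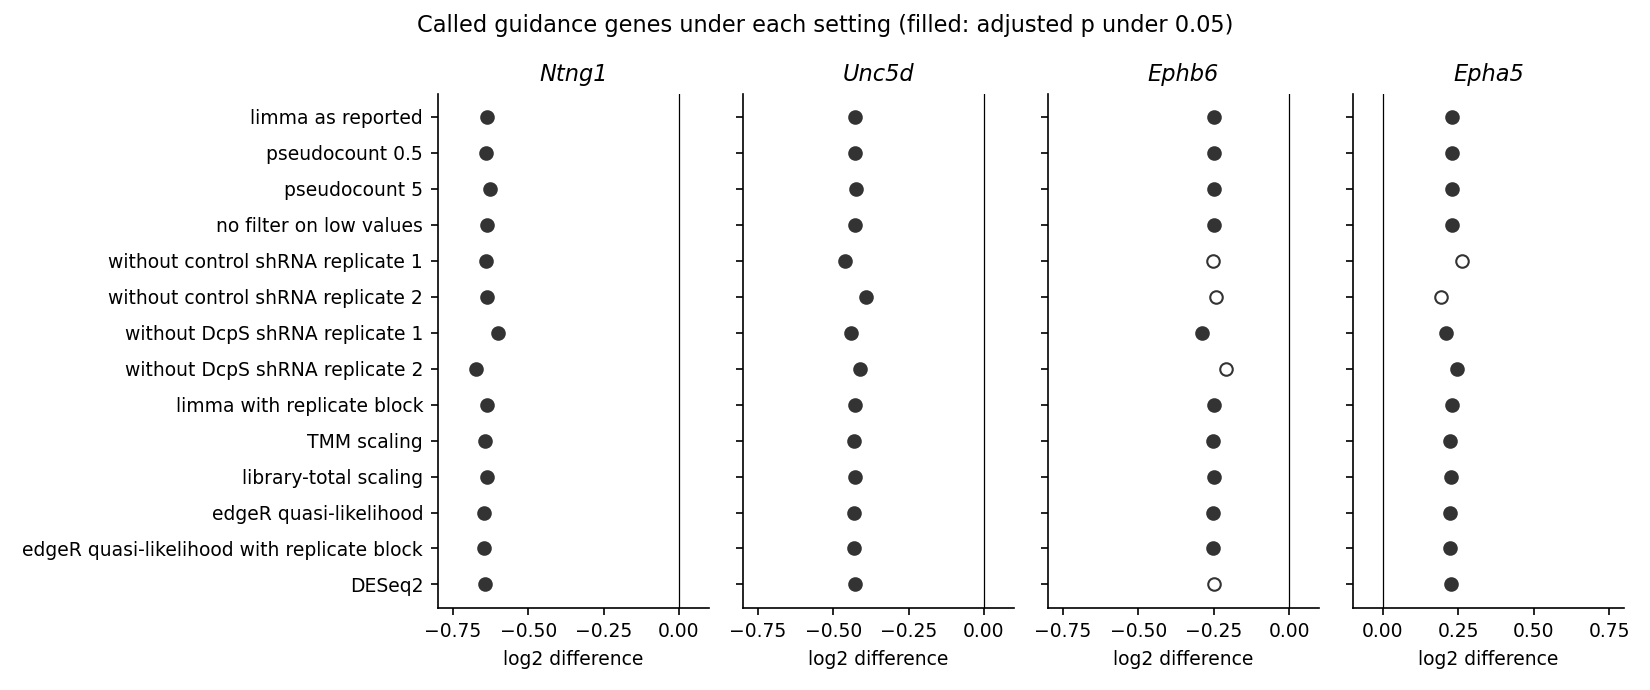
Log2 difference of the 4 called guidance genes as reported and in 13 alternative settings, filled where the adjusted p is under 0.05. Ntng1 and Unc5d are filled throughout, and Epha5 and Ephb6 are open in 2 and 4 settings.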

How the data were processed

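Total RNA of 4 cultures was sequenced, per the labels. The submitters' processing notes name HISAT2 2.2.0, SAMtools 1.3.1, Picard, featureCounts, DESeq2 and the build GRCm38. The annotation, the use of strand and the handling of multi-mapped reads are not stated. The deposited values are a signal, gene read counts scaled by the authors with 1 size factor per library: each is a whole multiple of its column's smallest positive value (100% within 0.001), and the factors equalled median-of-ratios factors (0.895 to 1.10). Whole reads were recovered by division. A count of 0 allows up to 3 reads, 0.138 to 0.169 CPM, which covers counting error only.

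Members, gene lists and tests were chosen with earlier results of these data known. Genes passing edgeR's filterByExpr (minimum count 10) were tested with limma 3.58.1 (trend, robust, group as the only term, two-sided) on log2(value + 1), so fold changes of low genes are understated. Levels per kb and positions used GENCODE M21 (GRCm38), and all 35 members matched by symbol. A RefSeq promoter entry was found for 30. Named were called members, the 5 highest per kb, the 3 largest uncalled differences in each direction and up to 6 partner genes per direction. Other members were given to complete each class, after their values were seen. Alternatives, including edgeR 4.0.16 and DESeq2 1.42.0 on recovered reads, are in the closing section. Libraries of a group differed by more than sampling noise (chi-square per degree of freedom 2.14 for the controls and 3.98 with DcpS shRNA).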

Additional observations from a re-analysis of the deposited data

How the results depend on the processing

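The settings were pseudocounts of 0.5 and 5, no filter on low values, each library left out in turn, the set number as a replicate block, TMM or library-total scaling, edgeR with and without the block, and DESeq2. Of the guidance genes 1 was called higher and 3 lower in each, except that without a library the higher count ranged from 0 (without either control) to 1 and the lower count from 2 to 3, and that DESeq2 called 2 lower. Where a group kept 1 library, that library was assumed to vary like the other group. Partner genes called higher numbered 1 to 4 and lower 2 to 13 without a library, 4 lower with DESeq2, and 3 higher and 14 lower with the replicate block in limma. The set numbers deviated together only weakly (correlation 0.04 across genes) and the labels do not say that they pair cultures. With the replicate block limma called 1626 genes in place of 1048, DESeq2 453, and limma 670 and 594 without control 1 and 2. Of the log2 differences, those of uncalled genes near 0 changed sign when a library was left out: Efnb1 (−0.101 to 0.0835) without control 1 or DcpS shRNA 2 (0.07), Efnb2 (−0.0186 to 0.0304) without control 2 (−0.01) or DcpS shRNA 2, and Epha4 (−0.0485 to 0.13) without control 1 (−0.02) or DcpS shRNA 1. Summed levels (log2 ratios), recomputed only without each library and with library-total scaling (chosen after seeing the data), changed sign for ephrin A (−0.00732 to 0.0363) without control 2 (−6.58e-05) or DcpS shRNA 1, for ephrin B (−0.0643 to 0.0465) without control 1 or DcpS shRNA 2 (0.00728), and for netrin receptors (−0.0495 to 0.0504) without control 1 (−0.0138) or DcpS shRNA 1. The cause of these changes was not tested. Genes under about 30 reads a library (Epha1, Epha2, Epha6) limit what can be seen.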
